A study of Homo sapiens and Mus musculus with 13 samples.

Results

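RNA-Seq was performed on 3 mammary tumors of Trim11+/- and 3 of Trim11+/+ MMTV-PyVT mice, 6 of the 13 samples of the series. All mice were 3 months old and were described as hybrids of Trim11+/- C57BL/6N mice with the FVB/N-Tg (MMTV-PyVT) strain, in which a promoter active in mammary epithelium drives the polyomavirus middle T oncogene. The labels give this strain another number for each tumor, from 634Mul/J to 639Mul/J, while the methods give 634Mul/J, and what the numbers stand for is not stated. The mice were female according to the methods, which state that Trim11+/- mice were backcrossed before this mating. The Trim11+/- mice lacked exons 2 to 6 of 1 Trim11 allele, deleted by CRISPR/Cas9 in the whole animal, and the Trim11+/+ mice carried none of this deletion. Each tumor gave 1 library, and tumors are numbered as in the labels, which do not say whether the tumors of a genotype came from separate mice. Expression is given as FPKM, fragment counts scaled to the length of the gene and to the size of the library. The table held 55228 gene symbols, and the 15208 whose mean over all 6 tumors reached an FPKM of 1 were analysed. A gene was counted as having no overlap when all 3 Trim11+/- tumors lay above, or all 3 below, all 3 Trim11+/+ tumors. Genes of the interferon response and of the extracellular matrix are only counted, and the text is about the others, except for Col17a1 and Lama3, which belong to both the matrix and the basal list.

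Trim11 encodes a ubiquitin E3 ligase of the tripartite motif family, and one of its reported substrates is KDM5C, a demethylase of lysine 4 of histone H3. The ducts and alveoli of the mammary gland are built of luminal cells, which make and secrete milk, and of an outer layer of basal or myoepithelial cells, which contract under oxytocin and express keratins 5 and 14. Tumors driven by middle T are mostly luminal, with some basal cells, stroma, vessels and immune cells, so a whole-tumor library mixes all of these. In such a library a smaller number of cells of a type and less RNA per cell cannot be told apart.

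The libraries held between 8793199 and 11117125 reads on genes. Luminal markers were abundant in every tumor, with a summed FPKM of Krt8, Krt18 and Epcam between 1125 and 1550. The T cell markers Cd3d, Cd3e and Cd3g summed to between 0.125 and 1.20 FPKM. Skeletal muscle differed between single tumors, with Acta1, Ckm and Mylpf together between 1.64 and 194 FPKM in the Trim11+/- tumors and between 16.3 and 175 in the Trim11+/+ tumors. Trim11+/- tumor 2 stood apart by genes of the Y chromosome. Eif2s3y had 767 reads there, an FPKM of 21.0, and was listed at 0 in the other 5 tumors. Kdm5d, the Y-linked paralog of Kdm5c, had an FPKM of 4.15 and Gm29650 one of 12.1, and both were also listed at 0 elsewhere. These genes lie side by side on chromosome Y of mm10 between 897788 and 1049134, while the neighbouring Uty had 0.0116 FPKM and Ddx3y was listed at 0. Xist, expressed from the inactive X chromosome, had 82.9 FPKM in this tumor and between 76.8 and 90.3 in the others. Leaving a tumor out cannot bring an overlap into a gene that had none. Without Trim11+/- tumor 2 the ratio of 2 of the 159 named genes with no overlap and a ratio, Cldn10 and Tnf, moved by over 1.5 times, and for 0 of them it crossed 1.

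Trim11 itself had an FPKM of 35.8, 36.3 and 39.2 in Trim11+/+ tumors 1 to 3 and of 24.0, 22.8 and 22.9 in Trim11+/- tumors 1 to 3. The genotypes did not overlap, and the ratio of means was 0.626 (limma adjusted p = 0.191). Kdm5c had 29.5, 24.7 and 29.0 FPKM in the Trim11+/+ tumors and 24.5, 24.3 and 23.3 in the Trim11+/- tumors, so the genotypes did not overlap but nearly met (limma adjusted p = 0.72). Mcam, which encodes an adhesion molecule, overlapped between the genotypes with between 24.2 and 35.9 FPKM. Cxcl1, a neutrophil chemokine, also overlapped, with 3.42, 4.35 and 3.88 FPKM against 3.26, 2.55 and 3.67. Cxcl2 had at most 0.27 FPKM and Cxcl3 at most 0.0257, so both lay under the limit of 1.

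Of the 15208 genes, 1043 (6.86%) were higher in the Trim11+/- tumors with no overlap and 1058 (6.96%) were lower, 2101 (13.8%) in all. Most of these differences were small, and 1553 of the 2101 genes had a ratio of means under 1.5 in either direction. By a ratio of at least 1.5 and an unadjusted limma p under 0.05, 245 genes (1.61%) were higher and 262 (1.72%) lower, and 444 of these 507 had no overlap. After Benjamini-Hochberg adjustment over all genes, limma called 1 gene (0.00658%), while 1088 had an unadjusted p under 0.05. With 3 tumors against 3, a two-sided exact permutation test gave p = 0.1 for every gene with no overlap, the smallest p this design allows. Single genes are therefore described by their 6 values, with a limma p for those the text turns on. Log2 fold changes are on the scale of log2(FPKM + 1), which understates the difference of genes at low levels.

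The gene called by limma was the noncoding 2610507I01Rik. It lies on chromosome 11 of mm10 from 59199836 to 59202385, and Trim11 lies on the same chromosome from 58978093 to 58991458. Its FPKM was 0.404, 0.579 and 0.440 in the Trim11+/+ tumors and 10.6, 8.36 and 10.6 in the Trim11+/- tumors (log2 fold change 2.87, standard error 0.14, limma adjusted p = 0.00522). The call was lost when Trim11+/+ tumor 1 or 3 or Trim11+/- tumor 1 or 3 was left out, and with voom or a replicate block, when limma called 0 genes. Otx1, a homeobox transcription factor of the developing forebrain, followed with 0.169, 0.345 and 0.698 FPKM against 5.16, 7.07 and 6.04 (limma adjusted p = 0.0762). It lies on the same chromosome from 21994764 to 22002897. Cpd, a carboxypeptidase of the trans-Golgi network and also on chromosome 11, had 56.1, 63.4 and 65.0 FPKM against 116, 124 and 137, a ratio of 2.05. Ncald, on chromosome 15, encodes the neuronal calcium sensor neurocalcin delta and had 4.01, 5.10 and 6.91 FPKM against 18.8, 24.2 and 18.5. These 4 genes were among the 5 with the smallest limma p, a choice that favors close values within a genotype and a wide gap. In the Trim11+/+ tumors 2610507I01Rik and Otx1 had a mean FPKM of 0.474 and 0.404. Both passed the limit of 1 only through the Trim11+/- tumors. The libraries were not directional, so reads of overlapping genes on opposite strands cannot be told apart. The pseudogene Gm47347 was listed at 0 in the Trim11+/+ tumors and had 2.37, 3.99 and 4.08 FPKM in the Trim11+/- tumors, which stood for at most 5 reads per tumor. It too passed the limit only through the Trim11+/- tumors. The limma adjusted p of Cpd, Ncald and Gm47347 was 0.165.

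Genes of exocrine secretions led the genes higher in Trim11+/- tumors. These genes encode proteins that salivary, lacrimal and skin glands release, and the mammary gland is related to such glands. The list of gland secretions had 60 members in the table, 36 of them under the limit of 1 FPKM. Of the 24 tested, 8 (33.3%) were higher with no overlap and 2 were lower, beside 6.86% and 6.96% of all genes. Scgb2b26 and Lpo had a mean FPKM under 1 in the Trim11+/+ tumors and passed the limit only through the Trim11+/- tumors, so the count is in part set by the limit. The median log2 fold change of those tested was 0.63. The 8 higher genes were Scgb1b27, Scgb2b26, Scgb2b27, Pip, Mup5, Lpo, Lcn2 and Wfdc18.

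The secretoglobins belong to a cluster on chromosome 7 with many close copies, where reads could be shared, so the coding sequences of both beta subunits are shown. The first 120 coding bases, from GENCODE vM21 on mm10, minus strand, follow, with capitals for the bases that differ in the alignment.
Scgb2b26: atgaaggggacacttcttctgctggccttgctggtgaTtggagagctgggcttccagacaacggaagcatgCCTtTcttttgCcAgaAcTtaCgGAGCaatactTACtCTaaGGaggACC
Scgb2b27: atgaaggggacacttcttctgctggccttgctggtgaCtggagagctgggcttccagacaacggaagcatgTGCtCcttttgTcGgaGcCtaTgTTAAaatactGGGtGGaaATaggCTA
Both coding sequences had 339 bases and shared 73.4% of the 342 aligned positions. The longest stretch of identical bases was 37, so any longer fragment within the coding sequence differs between both genes. Scgb2b27 had 52.9, 20.7 and 53.8 FPKM in the Trim11+/+ tumors and 191, 280 and 237 in the Trim11+/- tumors (log2 fold change 2.55, standard error 0.38, limma adjusted p = 0.317). Scgb2b26 had 0.790 and 0.340 FPKM in Trim11+/+ tumors 1 and 2, was listed at 0 in the third, and had 5.75, 7.46 and 28.3 in the Trim11+/- tumors. Scgb1b27, which encodes the alpha subunit that pairs with them, had 15.8, 4.01 and 1.39 FPKM against 104, 115 and 216 (limma adjusted p = 0.356). All 3 genes were separated widely between the genotypes, and the copies Scgb1b2, Scgb1b3, Scgb1b7, Scgb2b2, Scgb2b3 and Scgb2b7 were listed at 0 in all 6 tumors.

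The remaining gland genes were separated less widely between the genotypes. Pip, the prolactin-induced protein of secretory glands, had 1.07, 0 and 2.13 FPKM against 3.80, 5.52 and 45.9. Mup5, a major urinary protein with close copies, had 2.28, 0 and 0.754 FPKM against 3.11, 12.9 and 21.2. For both, Trim11+/- tumor 3 was the highest and Trim11+/- tumor 1 lay close to the Trim11+/+ range. Lpo, the lactoperoxidase of milk and saliva, had 0.584, 0.502 and 1.11 FPKM against 1.69, 2.68 and 1.16. For Lcn2 and Wfdc18 the genotypes nearly met, with ratios of 1.31 and 1.15. Lcn2 had 1511, 1781 and 1780 FPKM against 1820, 1851 and 2977. Wfdc18 had 1205, 1196 and 1028 against 1233, 1374 and 1327. The lower members were Wfdc12, a whey acidic protein domain inhibitor with 30.2, 15.7 and 16.1 FPKM against 5.57, 7.19 and 9.73, and Ltf, the iron-binding lactoferrin with 269, 312 and 361 against 234, 143 and 88.1. Milk proteins were mostly not separated. Of 15 tested, 0 were higher with no overlap and 1 (6.67%, beside 6.96% of all genes) was lower. The lower gene was the iron carrier Trf, with 2749, 2465 and 2704 FPKM against 2182, 1574 and 1253.

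**Figure D1:**
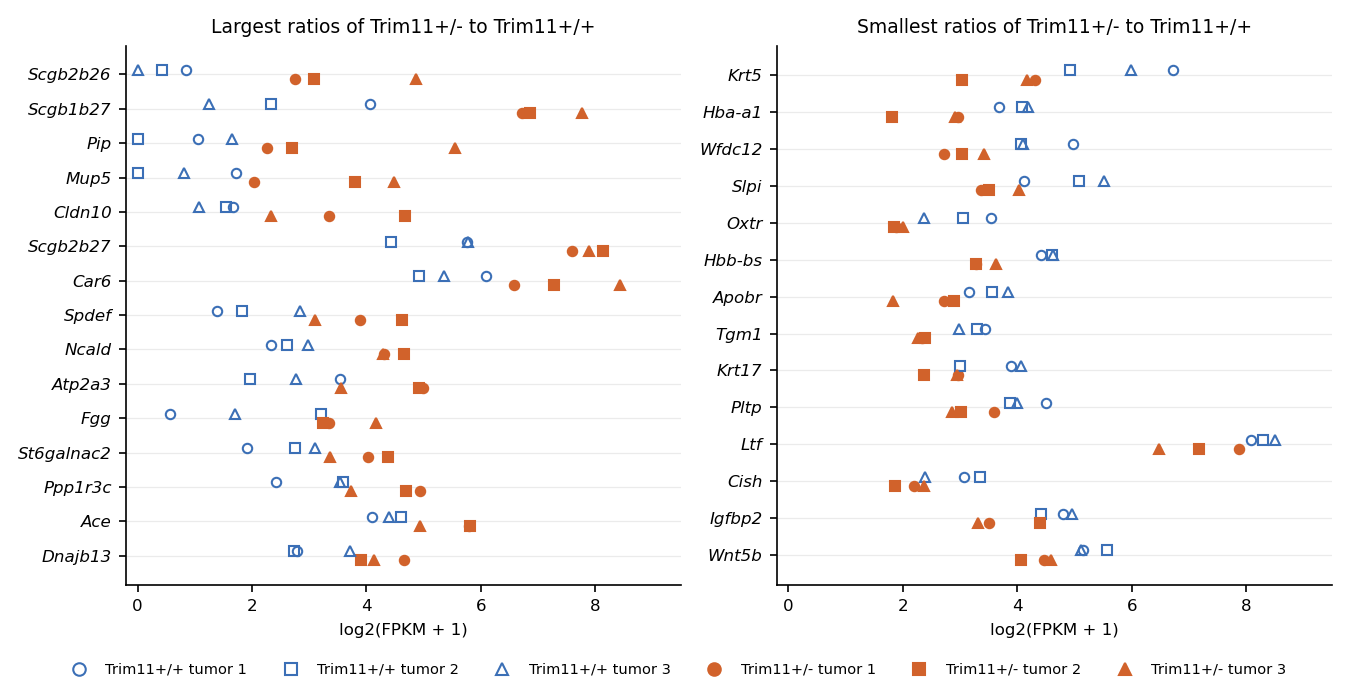
Expression of the 15 genes with the largest and 14 of the 15 with the smallest ratio of Trim11+/- to Trim11+/+, each with no overlap, a ratio of at least 1.5 and a mean FPKM of at least 5. The horizontal axis is log2(FPKM + 1), open blue symbols are the 3 Trim11+/+ tumors, filled orange symbols the 3 Trim11+/- tumors, and the secretoglobins Scgb1b27, Scgb2b26 and Scgb2b27 lie far apart between the genotypes while genes such as Fgg nearly meet.

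Some genes of ion and fluid transport, which luminal and ductal cells use to make secretions, were also higher. Of 32 tested, 5 (15.6%, beside 6.86% of all genes) were higher with no overlap and 0 were lower. The median log2 fold change was 0.14, and 12 members lay below 0. Car6, the carbonic anhydrase secreted into saliva and milk, had 66.8, 29.3 and 40.1 FPKM against 94.6, 155 and 343. Slc12a2, the basolateral sodium, potassium and chloride cotransporter, had 20.8, 21.8 and 26.7 FPKM against 36.8, 44.1 and 45.9, with little spread within a genotype (limma adjusted p = 0.38). Car12, a membrane carbonic anhydrase, had 23.7, 24.4 and 41.0 against 45.7, 60.0 and 49.4. The potassium channel genes Kcnn4 and Kcnk1 had ratios of 1.66 and 1.32.

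Among 30 luminal epithelial genes, 3 (10%) were higher with no overlap and 0 were lower, near the share of all genes. Spdef, an ETS transcription factor of secretory luminal cells, had 1.63, 2.56 and 6.18 FPKM against 13.7, 23.6 and 7.63. Cited4, a transcriptional coactivator, had 147, 113 and 152 against 209, 245 and 216, and Ehf, another ETS factor, had 120, 93.6 and 104 against 154, 160 and 141. The common luminal markers overlapped, with a ratio of 0.995 for Krt8 and 1.06 for Epcam. Cldn10, a claudin that forms ion-selective tight junctions, had 2.19, 1.94 and 1.12 FPKM against 9.17, 24.6 and 4.02, a ratio of 7.21 that was 3.77 without Trim11+/- tumor 2. Further genes with large ratios were Atp2a3, a calcium pump of the endoplasmic reticulum (ratio 3.66), Fgg, the gamma chain of fibrinogen (3.17), the sialyltransferase gene St6galnac2 (2.76), Ppp1r3c, a glycogen-targeting subunit of protein phosphatase 1 (2.56), Ace, the angiotensin-converting enzyme (2.35), and the cochaperone gene Dnajb13 (2.32). Ace had 16.1, 23.2 and 20.0 FPKM against 54.6, 55.3 and 29.5. Among the genes with the largest and smallest ratios, chosen without unnamed symbols such as 2610507I01Rik, the lowest limma adjusted p was 0.165, that of Ncald.

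Among basal and myoepithelial genes, those separated between the genotypes were lower in Trim11+/- tumors. Of 30 members 24 were tested, and of these 12 (50%) were lower with no overlap and 0 were higher, against 6.96% of all genes, and 24 of 24 had a log2 fold change below 0, with a median of -0.77. Among the 12, Cdh3 had a mean FPKM of 2.05 in the Trim11+/+ tumors and 0.832 in the Trim11+/- tumors. It passed the limit of 1 only through the Trim11+/+ tumors, so the count is in part set by the limit. Krt5 had 105, 29.2 and 62.5 FPKM in the Trim11+/+ tumors and 18.8, 7.14 and 16.9 in the Trim11+/- tumors. Its partner Krt14 had 59.2, 53.2 and 91.1 against 48.3, 23.6 and 36.6, and Krt17 had 13.8, 6.98 and 15.7 against 6.79, 4.18 and 6.66. The 3 keratins were lowest in Trim11+/- tumor 2 in each case. Trp63, the transcription factor that defines basal epithelium, had 4.49, 4.72 and 5.47 FPKM against 3.67, 1.90 and 2.46.

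Oxtr, the oxytocin receptor of myoepithelial cells, had 10.6, 7.31 and 4.16 FPKM against 2.69, 2.59 and 3.01, with a ratio of 0.375. Col17a1, a collagen of the hemidesmosomes that anchor basal cells, had 8.08, 3.21 and 3.36 against 2.12, 1.32 and 1.44, and Lama3, a laminin chain of the same structure, had a ratio of 0.444. Igfbp2, which binds insulin-like growth factors, had 26.8, 20.4 and 30.2 against 10.4, 19.9 and 8.97, so the closest tumors of the genotypes nearly met. Trim11+/+ tumor 1 was the highest for Krt5, Oxtr and Col17a1, and without it the median of the list was -0.43. The contractile genes Acta2 and Mylk overlapped, and their highest value was in the same tumor, with 138 FPKM of Acta2 there and between 17 and 36.5 in the other 5. The limma adjusted p of Krt5, Oxtr and Trp63 was between 0.594 and 0.61.

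Further genes with small ratios had other roles. Slpi, the secretory leukocyte protease inhibitor, had 16.4, 32.6 and 44.6 FPKM against 9.30, 10.4 and 15.3. Tgm1, the transglutaminase of cornified epithelium, had 9.84, 8.80 and 6.87 against 4.01, 4.21 and 3.83, with close values in the 3 Trim11+/- tumors (limma adjusted p = 0.378). Pltp, the phospholipid transfer protein, had 21.8, 13.6 and 14.9 against 11.1, 7.06 and 6.28. The lipoprotein receptor gene Apobr had a ratio of 0.455 and Cish, an inhibitor of cytokine signaling, one of 0.498. Wnt5b, a noncanonical Wnt ligand, had 34.4, 46.4 and 33.7 FPKM against 21.1, 15.6 and 23.2, and Wnt5a had a ratio of 0.623. In the list of 28 Wnt pathway genes, 2 (7.14%) were higher with no overlap, near the 6.86% of all genes, and 4 (14.3%) were lower, beside 6.96%.

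**Figure D2:**
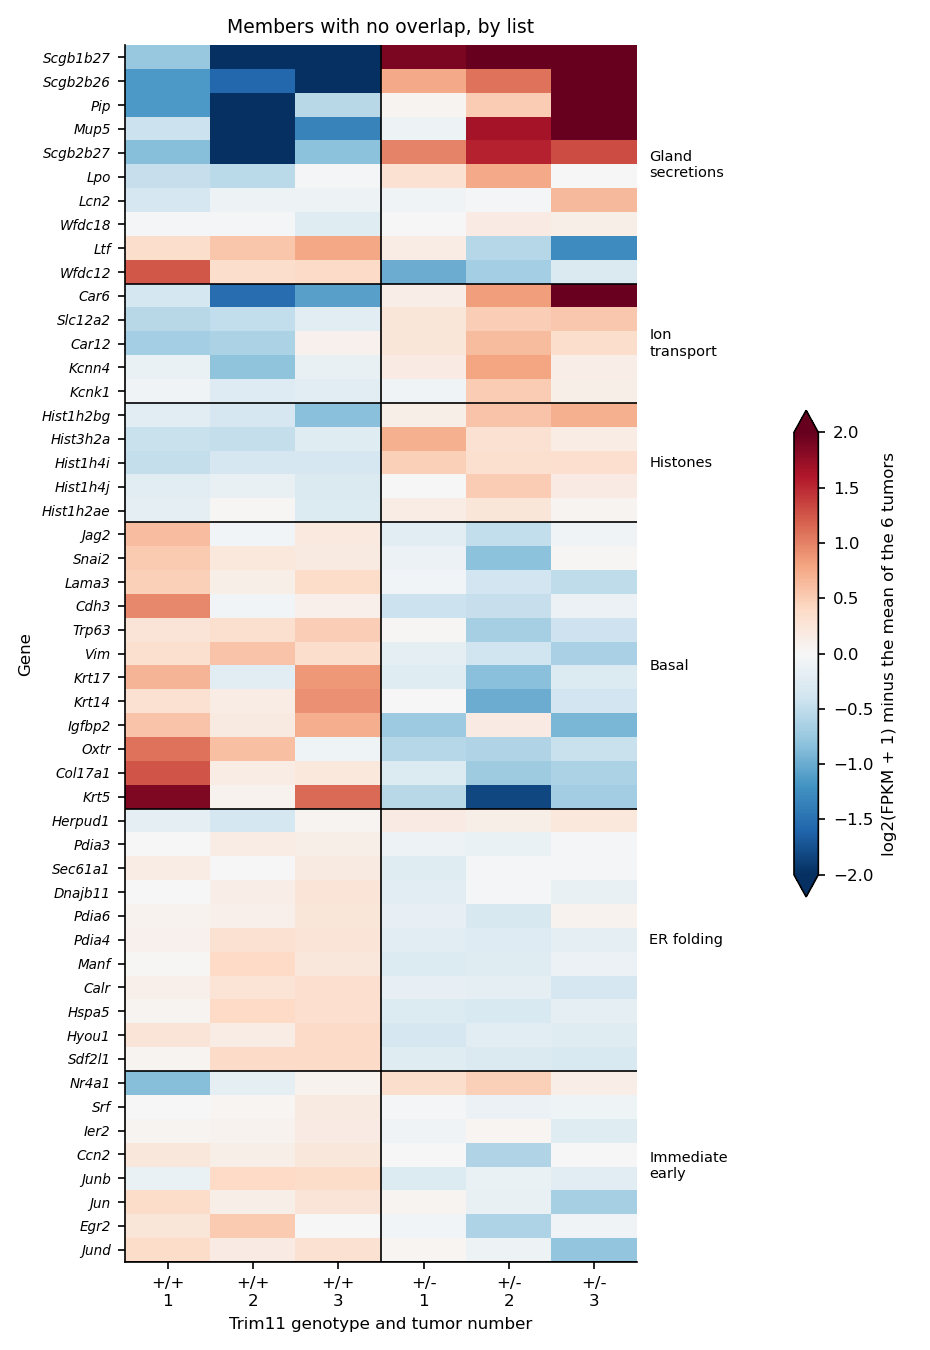
All members with no overlap of 6 gene lists, 1 row per gene and 1 column per tumor, with the Trim11+/+ tumors left of the line. The color gives log2(FPKM + 1) minus the mean of the gene over the 6 tumors, cut at 2 either way. Gland secretion, ion transport and histone genes are mostly red on the right, and basal, endoplasmic reticulum (ER) folding and immediate early genes are mostly red on the left.

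Some chaperones and folding enzymes of the endoplasmic reticulum, which help secreted proteins to fold, were lower by small amounts. Of 29 tested, 10 (34.5%, beside 6.96% of all genes) were lower with no overlap and 1 was higher. The median log2 fold change was -0.12, 9 members lay above 0, and 0 passed the rule of fold and p. Hspa5, the chaperone BiP, had 231, 294 and 283 FPKM against 184, 181 and 195 (ratio 0.692). Hyou1, its nucleotide exchange factor, had 30.8, 28.4 and 33.8 against 20.1, 21.8 and 21.4 (log2 fold change -0.53, standard error 0.10, limma adjusted p = 0.461). The calcium-binding lectin gene Calr had 264, 298 and 313 against 220, 216 and 195. For each of the 3 genes the Trim11+/- tumors lay within a narrow range. Sdf2l1 and Manf, which assist BiP, had ratios of 0.674 and 0.733, and the disulfide isomerase genes Pdia4 and Pdia3 had ratios of 0.738 and 0.885. Herpud1, a part of the system that degrades misfolded proteins, was the higher member, with 38.9, 34.5 and 46.2 FPKM against 49.9, 48.0 and 51.3. Hsp90b1 overlapped. The median of the list was -0.06 without Trim11+/- tumor 1, -0.20 without Trim11+/- tumor 3 and -0.19 without Trim11+/+ tumor 1. Of 29 genes of the ATF4 and amino acid stress response, 15 had a log2 fold change above 0 and 14 below. With no overlap, 4 (13.8%, beside 6.86% of all genes) were higher and 1 was lower. Asparagine synthetase (Asns), a higher member, had 16.2, 14.3 and 17.8 FPKM against 20.0, 24.2 and 23.8. Chac1, also higher, had a mean FPKM of 0.743 in the Trim11+/+ tumors. It passed the limit of 1 only through the Trim11+/- tumors.

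Some immediate early genes, which cells transcribe within minutes of a stimulus, were lower too. Of 31 tested, 7 (22.6%, beside 6.96% of all genes) were lower with no overlap and 1 was higher. Of the 7, 0 passed the rule of fold and p, and the median log2 fold change of the list was -0.29. The AP-1 subunit Jund had 321, 279 and 306 FPKM against 255, 232 and 143, and Jun had 67.6, 56.9 and 62.6 against 54.6, 47.2 and 32.7. Both were lowest in Trim11+/- tumor 3, and without it the median of the list was -0.11, while without Trim11+/+ tumor 3 it was -0.18. Junb had 47.5, 68.6 and 67.0 against 42.9, 47.1 and 44.3, and Egr2 had a ratio of 0.576. The orphan nuclear receptor gene Nr4a1 was the higher member, with 10.01, 16.5 and 19.8 against 24.2, 26.7 and 20.8. Fos and Egr1 overlapped, with Fos between 22.3 and 72.9 FPKM in the Trim11+/+ tumors.

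Genes of cell migration and adhesion were another group in which the members with no overlap were lower. Of 43 tested, 10 (23.3%, beside 6.96% of all genes) were lower and 0 were higher, with a median log2 fold change of -0.16. Vim, the intermediate filament vimentin, had 41.1, 49.1 and 42.0 FPKM against 28.7, 24.5 and 20.6 (limma adjusted p = 0.455). Snai2, a transcriptional repressor of epithelial genes, had 5.34, 4.14 and 3.99 against 3.07, 1.52 and 3.50. Plau, the urokinase plasminogen activator, had 7.93, 7.94 and 7.16 against 5.32, 5.77 and 4.40, and the protease receptor gene F2rl1 had 9.15, 6.60 and 6.43 against 4.20, 4.94 and 4.55. The median of the list was -0.26 without Trim11+/+ tumor 1 or Trim11+/- tumor 1 and -0.10 without Trim11+/- tumor 3. Cdh3, Vim and Snai2 also belong to the basal list, so these counts are not independent of it. Cdh3 passed the limit of 1 only through the Trim11+/+ tumors. Of 34 growth factor and receptor genes, 6 (17.6%, beside 6.96% of all genes) were lower and 1 was higher. They included 3 binding proteins of insulin-like growth factors, with ratios of 0.508 for Igfbp2, 0.565 for Igfbp6 and 0.567 for Igfbp4, and the ligands Pdgfa (0.67) and Tgfa (0.665). Fgf7 was the higher one, with between 0.789 and 2.35 FPKM in all tumors.

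Replication-dependent histone genes, whose mRNAs mostly end in a stem-loop and not in a poly(A) tail, were largely under the limit in these poly(A) libraries. Of 64 members 16 were tested, and of these 5 (31.2%, beside 6.86% of all genes) were higher with no overlap and 0 were lower. The median log2 fold change was 0.39. Hist1h4i had 12.2, 13.5 and 13.6 FPKM against 24.4, 21.9 and 22.1 (limma adjusted p = 0.166), and Hist1h2bg had 3.70, 3.34 and 2.1 against 4.95, 7.18 and 7.98. Hist1h4i varied little within a genotype, while Hist1h2bg varied more and rested on 13 to 53 reads per tumor. Histone genes have near-identical copies between which reads could be split. Of 50 cell cycle genes 0 were higher and 2 (4%, beside 6.96% of all genes) were lower with no overlap. The 2 were cyclin D1 (Ccnd1) with 71.2, 38.2 and 49.0 FPKM against 31.9, 37.2 and 31.6, and the licensing factor gene Cdt1.

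Of 30 histone demethylase genes, 7 (23.3%, beside 6.86% of all genes) were higher with no overlap and 2 were lower. Of these 9 differences, 9 were under 1.5-fold. Kdm3a had 10.9, 9.46 and 10.2 FPKM against 13.5, 12.9 and 12.6, Kdm4b had a ratio of 1.22, and Kdm5a, a paralog of Kdm5c, had 7.79, 8.70 and 8.48 against 9.59, 8.90 and 9.54. Kdm4a and Kdm5c were the lower members, each with a ratio of 0.87. Kdm5b overlapped with a ratio of 0.994.

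Among genes of metabolism, those of fatty acid oxidation were in part higher. Of 22 tested, 5 (22.7%, beside 6.86% of all genes) were higher with no overlap and 1 was lower. The median log2 fold change was 0.13, and 0 passed the rule of fold and p. Acadm, a mitochondrial dehydrogenase of this pathway, had 26.5, 30.6 and 25.2 against 35.1, 34.6 and 31.5. In the separate list of fatty acid synthesis and lipid droplets, 2 of 31 (6.45%) were higher with no overlap, Plin3 and Thrsp, and 20 had a log2 fold change below 0. Thrsp, a regulator of fatty acid synthesis in the lactating gland, had 166, 123 and 121 FPKM against 233, 271 and 370. The 75 nuclear genes of oxidative phosphorylation had 5 higher and 4 lower members, close to the shares of all genes. All 5 of the higher ones lay on chromosomes 7 and 17. Of the 75 genes, 18 lay on chromosomes 7, 11, 15 and 17. Glucocorticoid response genes had 3 higher members of 19 (15.8%, beside 6.86% of all genes), Fkbp5 with 15.1, 12.2 and 11.1 against 18.6, 41.3 and 24.8, Tsc22d3 with 18.0, 19.6 and 21.9 against 43.2, 26.3 and 32.9, and Lcn2, and 1 lower member, the glucocorticoid receptor gene Nr3c1 with a ratio of 0.837. The clock output factor Tef had 8.67, 12.7 and 12.2 against 21.5, 31.0 and 14.1.

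**Figure D3:**
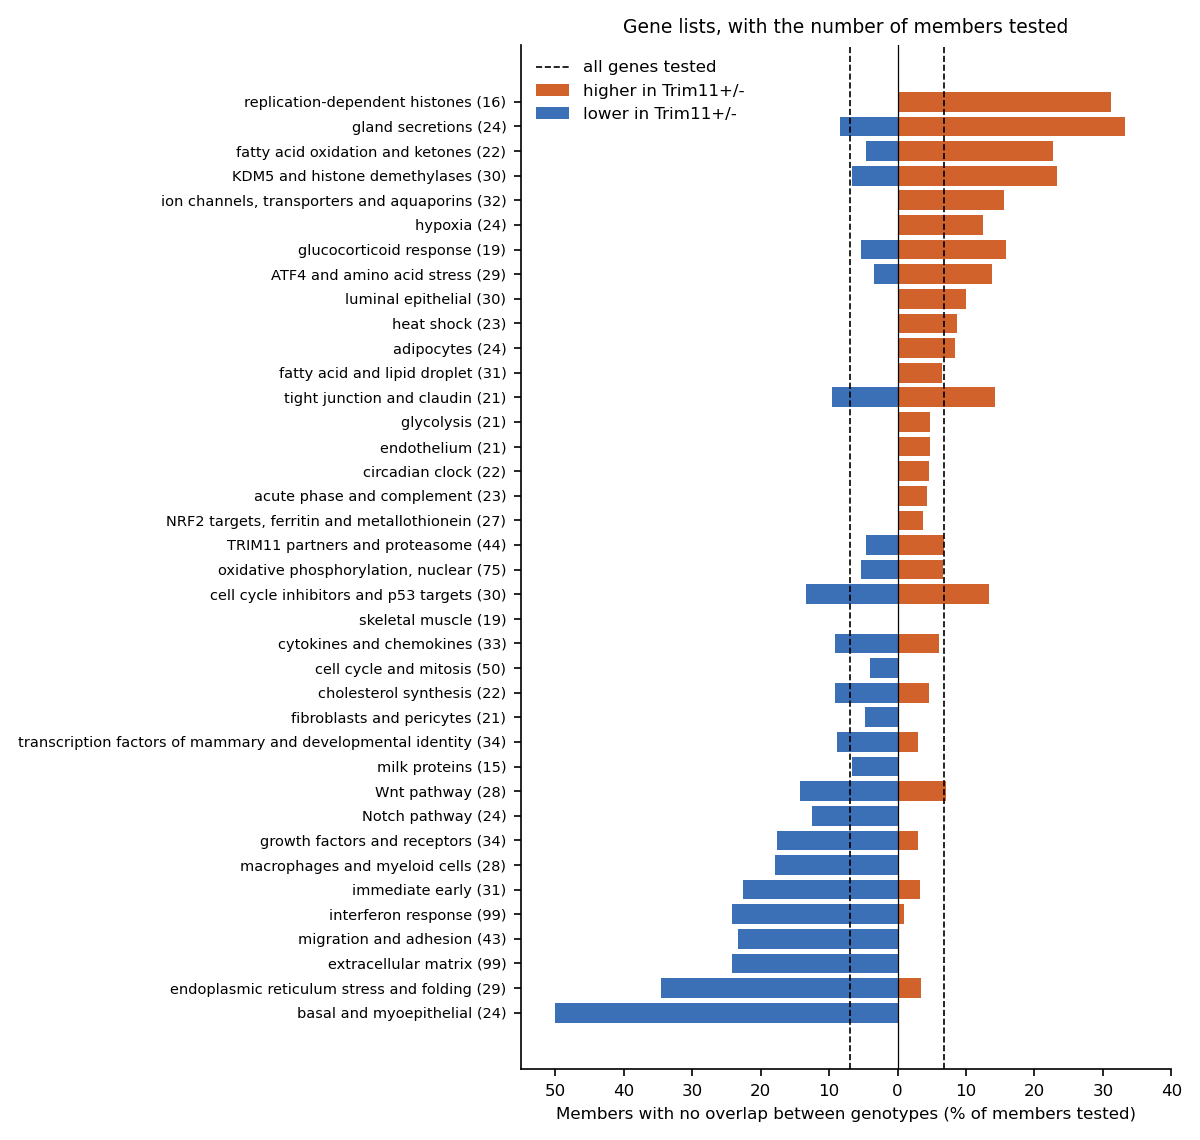
Share of the tested members of each list with at least 15 tested that were higher (orange, right) or lower (blue, left) in the Trim11+/- tumors with no overlap, as percent of members tested, with the number tested in parentheses and the shares of all 15208 genes as dashed lines. Basal and myoepithelial genes reach 50% on the left, and gland secretions 33.3% on the right.

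Some markers of other cells in the tumor also differed. Of 28 macrophage and myeloid genes, 5 (17.9%, beside 6.96% of all genes) were lower with no overlap and 0 were higher. Of the 28, 26 had a log2 fold change below 0, and 0 passed the rule of fold and p. The summed level of all 34 members in the table, 6 of them under the limit, was between 1181 and 1389 FPKM in the Trim11+/+ tumors. In the Trim11+/- tumors it was between 1004 and 1239. The chemokine receptor gene Cx3cr1 had 6.13, 5.39 and 5.93 against 4.39, 4.70 and 3.82, the receptor gene Csf1r had a ratio of 0.745, and the macrophage marker Adgre1 overlapped. The monocyte chemokine Ccl2 had 1.93, 3.37 and 4.20 against 1.74, 0.899 and 0.736. Of 7 neutrophil and mast cell genes tested, 3 (42.9%, beside 6.96% of all genes) were lower with no overlap and 0 were higher. Of the 7, 2 had a log2 fold change above 0. The lower ones were S100a9 with 2 to 31 reads per tumor, Csf3r, and Ltf, which is also a gland secretion. S100a9 had a mean FPKM of 0.793 in the Trim11+/- tumors and passed the limit of 1 only through the Trim11+/+ tumors. The sum of S100a8, S100a9 and Csf3r overlapped, with 17.8 to 37.3 FPKM in Trim11+/+ tumors and 17.7 to 20.2 in Trim11+/- tumors. Neutrophil granule genes such as Elane and Mpo were at or near 0. Of 5 erythroid genes tested, 3 (60%, beside 6.96% of all genes), all of them hemoglobin genes on chromosomes 7 and 11, were lower with no overlap. Another 6 were under the limit, and Alas2 and Bpgm overlapped with a log2 fold change above 0. Hbb-bs was at 20.3, 23.4 and 23.7 against 8.67, 8.74 and 11.4 FPKM and Hba-a1 at 11.8, 16.0 and 17.2 against 6.76, 2.52 and 6.53, and both have close copies. Endothelial genes had 1 higher (4.76%, beside 6.86% of all genes) and 0 lower of 21. Fibroblast and pericyte genes had 0 higher and 1 lower (4.76%, beside 6.96%) of 21. The 19 tested skeletal muscle genes had 0 and 0. All 28 muscle genes in the table, 9 of them under the limit, summed to between 23.3 and 539 FPKM in the Trim11+/- tumors. The part of these cells in the differences of the basal, migration and secretion genes was not tested. In the lists kept apart, 24 of 99 interferon response genes and 24 of 99 extracellular matrix genes were lower with no overlap, and 1 and 0 were higher. The lower share was 24.2% in each, beside 6.96% of all genes.

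The genes with no overlap were unevenly spread over the chromosomes. On chromosome 17, 126 of 724 tested genes (17.4%) were higher and 27 (3.73%) lower in the Trim11+/- tumors. Chromosome 7 had 151 higher genes of 1165 (13%) and 32 lower, chromosome 11 had 148 of 1257 (11.8%) and 50 lower, and chromosome 15 had 64 of 591 (10.8%) and 25 lower. Together these 4 chromosomes held 489 higher and 134 lower of 3737 genes, and the other 16 held 541 higher (4.81%) and 915 lower (8.14%) of 11245. The 4 chromosomes were chosen after these values were seen, and without their genes 554 genes were higher and 924 lower with no overlap.

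The level of whole chromosomes was then compared between tumors, for 8157 protein-coding genes whose mean FPKM reached 5. For each gene the log2 value of a tumor was taken relative to the median of the 6 tumors, and the median over the genes of a chromosome was centered on that of all genes in the tumor. Chromosome 7 stood at 0.08 in Trim11+/- tumor 1 and 0.14 in Trim11+/- tumor 2, but at -0.06 in Trim11+/- tumor 3 and between -0.05 and -0.04 in the Trim11+/+ tumors. In Trim11+/- tumor 2, 79.8% of the genes of chromosome 7 lay above 0, and 8 of 8 bins of 20 Mb had a median above 0. Chromosome 11 stood at -0.13 in Trim11+/+ tumor 1, with 78.8% of its genes below 0 and 7 of 7 bins below 0. It stood at 0.01 and -0.01 in Trim11+/+ tumors 2 and 3 and at 0.08, -0.03 and 0.05 in Trim11+/- tumors 1 to 3. Chromosome 17 stood at 0.11 in Trim11+/- tumor 3, where 5 of 5 bins were above 0, and at 0.01 and 0.05 in Trim11+/- tumors 1 and 2. In Trim11+/+ tumors 1 to 3 it stood at -0.02, -0.05 and -0.05. Chromosome 15 stood at 0.05 and 0.08 in Trim11+/- tumors 2 and 3 and at -0.013 in Trim11+/- tumor 1. In Trim11+/+ tumors 1 to 3 it stood at -0.017, -0.021 and -0.023. For chromosomes 15 and 17 these medians did not overlap between the genotypes. Chromosome 3 stood at 0.13 in Trim11+/- tumor 3 alone, with 7 of 7 bins above 0 there. The 15 other chromosomes ranged from -0.04 to 0.05 over all 6 tumors. The largest shifts concerned different chromosomes in different tumors. Bins of a chromosome also differed, with medians from 0.002 to 0.19 for chromosome 15 in Trim11+/- tumor 3. DNA copies were not analysed here, and the cause of the shifts was not tested. Chromosome 3 had 6.61% higher genes with no overlap despite its shift, and chromosome X, one of the 15 others, had 9.8%. The part of these shifts in single genes and in the counts was not tested.

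**Figure D4:**
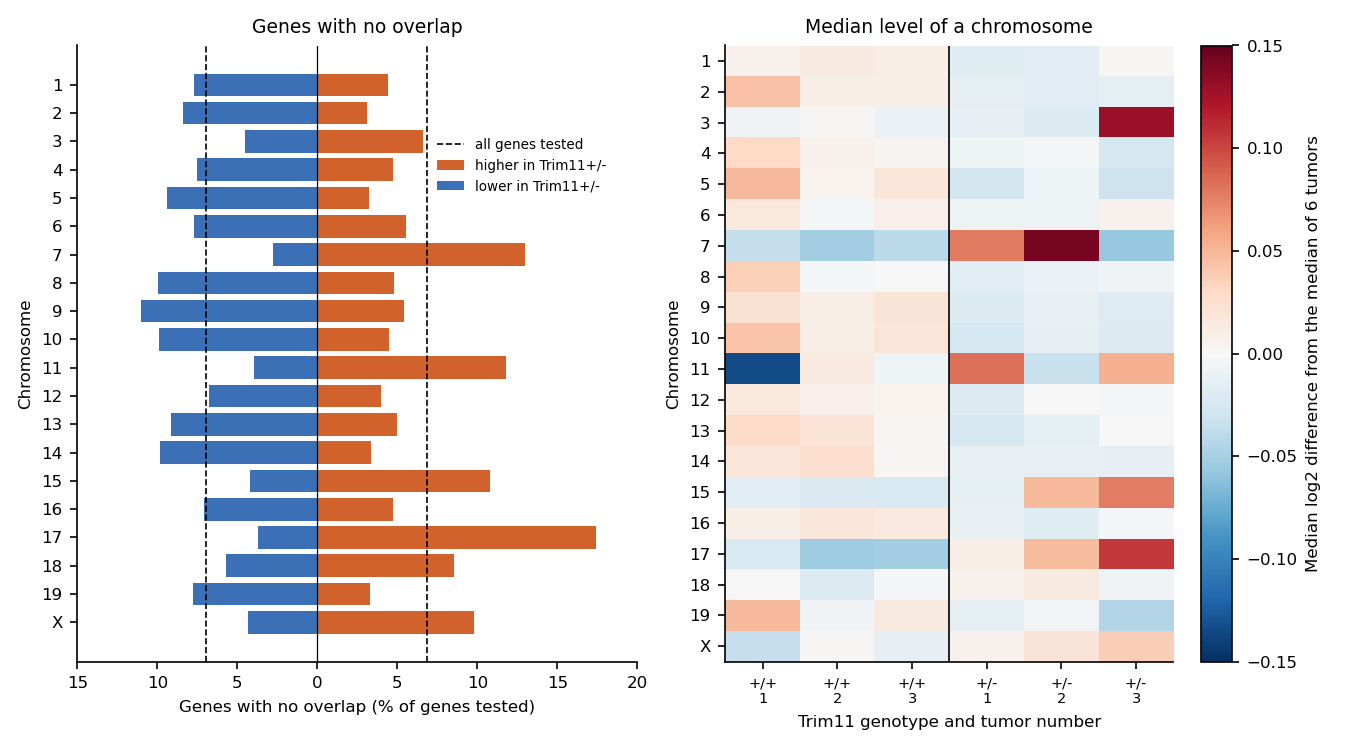
Left, share of the tested genes of each chromosome with no overlap, higher (orange, right) or lower (blue, left) in the Trim11+/- tumors, in percent, with dashed lines for all genes. Right, median level of each chromosome in each tumor as a log2 difference from the median of the 6 tumors. Chromosomes 7, 11, 15 and 17 exceed the dashed line for higher genes the most, with X and 18 above it too, and the single darkest fields are chromosome 7 in Trim11+/- tumor 2, chromosome 11 in Trim11+/+ tumor 1 and chromosome 3 in Trim11+/- tumor 3.

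Of the 8 higher gland secretion genes, 5 lay on these 4 chromosomes, namely the 3 secretoglobins, Lpo and Wfdc18. Of the 12 lower basal genes 3 lay there, of the 5 higher histone genes 1, of the 3 lower hemoglobin genes 3, and of the genes of ER folding with no overlap 0. Of all tested members, 11 of 24 gland, 7 of 24 basal, 1 of 16 histone, 3 of 5 erythroid and 6 of 29 ER folding genes lay there. Within 5 Mb of Trim11, 21 of 130 tested genes (16.2%) were higher with no overlap and 10 (7.69%) were lower, beside 127 (11.3%) and 40 (3.55%) of the 1127 other genes of chromosome 11. The 10 lower genes included Trim11 itself, and the 21 higher genes included 2610507I01Rik. The deleted allele came from C57BL/6N and the transgenic strain was FVB/N. The deletion and alleles linked to it therefore cannot be told apart near Trim11.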

How the data were processed

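Libraries of poly(A) RNA, without strand information, were sequenced from both ends for the 6 tumors, and FPKM values per gene were deposited. According to the methods, reads were trimmed and aligned to mm10 with HISAT2, and Cufflinks gave the expression levels. The submitters' processing notes also name Bowtie 0.12.2. Library totals on genes lay between 8793199 and 11117125, with a median of 10456117. The FPKM gave whole reads for 98.8% of 28790 genes (within 0.02 reads), which were recovered for 14816 tested genes. Of a symbol with several rows the row of highest mean was kept, and 15208 symbols with a mean FPKM of at least 1 were tested with limma 3.58.1 (R 4.3.3, eBayes with trend) on log2(FPKM + 1) and Benjamini-Hochberg adjustment over all of them. Exact permutation tests used scipy 1.17.1. The text named the genes the study examined, the 15 largest and 15 smallest ratios (no overlap, ratio of at least 1.5, unadjusted p under 0.05, mean FPKM of at least 5), the 10 highest means among genes with no overlap, the 5 smallest p, and up to 4 members with no overlap per list and direction, leaving out from the ratios and means the lists kept apart, ribosomal proteins, small RNAs and unnamed or pseudogene symbols. A few genes that met these rules are not reported here. Other list members in the text were chosen after their values were seen. Members and lists were chosen with earlier results of these data known. The p-values measure the spread between these tumors only. Positions were from GENCODE vM21 on mm10. Filters, pseudocounts, scalings, a replicate block, voom on recovered reads and each tumor left out were tried.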

Additional observations from a re-analysis of the deposited data

Results flagged for a closer look

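Kdm5d, which lies on the Y chromosome and was under the limit on mean FPKM, had 4.15 FPKM in Trim11+/- tumor 2 and was listed at 0 in the other 5 tumors. It stood out as a signal outside the genes compared and above the level of the Trim11+/+ tumors, in mice that the methods describe as female.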

How the results depend on the processing

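Trim11 kept its direction and its side of the threshold in 17 of 17 alternatives. With a mean FPKM of at least 5, 687 genes were higher and 663 lower with no overlap, and by the fold and p rule 105 were higher and 97 lower. By that rule 479 and 491 were found without a filter, 118 and 111 with a ratio of at least 2, and 139 and 142 with the unpaired test of the methods on FPKM. With each tumor left out in turn, 1478 to 2109 genes were higher and 1665 to 2201 lower with no overlap, 230 to 363 and 232 to 412 passed the fold and p rule, and 0 to 1 had a limma adjusted p under 0.05. Fewer tumors make no overlap easier to reach. By adjusted p, 3 genes were called without the trend (1096 at an unadjusted p under 0.05) and 0 with voom on recovered reads (1043 unadjusted).

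With the replicate number as a block, limma called 0 genes by adjusted p (733 at an unadjusted p under 0.05), and 238 and 236 genes passed the fold and p rule. Deviations of tumors with the same number correlated at -0.36, 0.04 and -0.15, and no tumor correlated best with its own number. The numbers thus gave no sign of pairing the tumors.

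Mcam, which overlapped, had a log2 fold change of 0.10 without Trim11+/+ tumor 1 and of 0.0078 without Trim11+/- tumor 1, of -0.18 without Trim11+/+ tumor 2, and of -0.06 with all tumors. The cause was not tested. The median of 23 of 47 lists kept its sign in every alternative run, and 0 changed sign under another scaling. Leaving out chromosomes 7, 11, 15 and 17, a choice made after seeing the data, left 554 higher and 924 lower genes.

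With 3 tumors a genotype, differences under the spread between tumors were not detectable here.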
